A study of Mus musculus with 16 samples.

Results

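The change shared by every mouse that was biopsied again was examined across genes. Its members are the 7 mice, numbered 2, 3, 4, 6, 7, 8 and 9 in the titles, that gave an array both at day 0 and at day 5, which is 14 of the 16 arrays. For each gene the day-0 value of a mouse was subtracted from its own day-5 value, and the 7 differences were pooled whatever had been applied to the skin. The animals were female C57/B6 mice (the titles write C57/B7), 8.5 weeks old at day 0, and the tissue was whole dorsal skin. After the first biopsy the skin received a daily topical application for 4 days, and on day 5 the mice were killed and treated skin was sampled a second time. Mice 2 and 3 received dimethyl sulfoxide (DMSO, the vehicle) alone, mice 4 and 6 ruxolitinib, and mice 7, 8 and 9 tofacitinib, both of them inhibitors of Janus kinases (JAKs). The labels give no dose. For mouse 7 a description field names ruxolitinib where the title, the source and the treatment field name tofacitinib, which bears only on comparisons between the arms.

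All 7 mice had an earlier biopsy, 4 days of topical application and 5 days of ageing between their arrays, and no day-5 mouse was left without a first biopsy or without an application. These 3 influences cannot be told apart in the change they share. How far the second biopsy lay from the first, and the time of day of either, are not stated in the labels. Healthy skin is layered, with a renewing epidermis and hair follicles over a collagen-rich dermis, a fat layer and, on the back of the mouse, a thin sheet of skeletal muscle. After wounding, keratinocytes near the edge switch to a migratory state with its own keratins and proteases, while fibroblasts, vessels and immune cells rebuild the tissue below. In a whole-skin array, fewer cells of a type and less RNA per cell cannot be told apart.

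Values are log2 expression values, so that a difference of 1 is a 2-fold change, and every change below is day 5 minus the same mouse's day 0. A gene passed when its adjusted p in a paired limma fit lay under 0.05, and errors are standard errors over the 7 pairs. Control probe sets without a target, 27 in number, had a median value of 1.70 and reached at most 2.43, and values at or below 2.43 are called background here. The keratin genes Krt5 and Krt14, which mark the epidermis, lay at a mean of 12.87 and 13.19 at day 0. Arrays of the same day correlated at 0.960 or more across genes, and arrays of different days at 0.869 to 0.955. The 3' minus 5' signal of beta-actin, a measure of RNA integrity, changed by -0.02 on average and that of Gapdh by -0.07. The same measure rose in all 7 pairs for pyruvate carboxylase (by 1.11, exact sign-flip permutation p = 0.0156, the smallest that 7 pairs allow, and 0.0625 after Benjamini-Hochberg adjustment over 4 transcripts) and in 6 of 7 for the transferrin receptor (by 1.64, permutation p = 0.0313, adjusted 0.0625). The part of this shift in the gene results was not tested. Actb itself changed by -0.06 (95% interval -0.26 to 0.14) and Ywhaz by -0.01 ± 0.12.

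The change between the biopsies reached most of the genes measured. Of 12087 genes, 6797 passed (56.2%), with 3076 higher (25.4%) and 3721 lower (30.8%) at day 5. With each array centred on its own median the split turned to 3555 higher and 3311 lower. The direction was the same in all 7 pairs for 4962 genes (41.1%), of which 2049 were higher (17%) and 2913 lower (24.1%) in every mouse. Both conditions were met by 4794 genes (39.7%), 1959 of them upward (16.2%) and 2835 downward (23.5%), while 7467 genes (61.8%) had an unadjusted p under 0.05 in limma. Genes that passed with a mean change of at least 1 numbered 2444 (20.2%). A further 2003 genes passed although at least 1 pair went the other way, and 168 moved one way in all 7 pairs without passing. The day-0 and day-5 arrays did not overlap at all for 1115 genes that were higher (9.22%) and 1879 that were lower (15.5%). Each of the 7 changes was at least 1 for 149 higher (1.23%) and 347 lower genes (2.87%), and at least 2 for 24 higher (0.199%) and 52 lower genes (0.43%). As deposited, falls outnumbered rises at each of these steps, although the median change of all genes was only -0.04. Just inside the threshold lay Lhx2 (-0.60, adjusted p = 0.0499) and Lmcd1 (1.10), and just outside it Alcam and Prss36, each at -0.42.

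**Figure D1:**
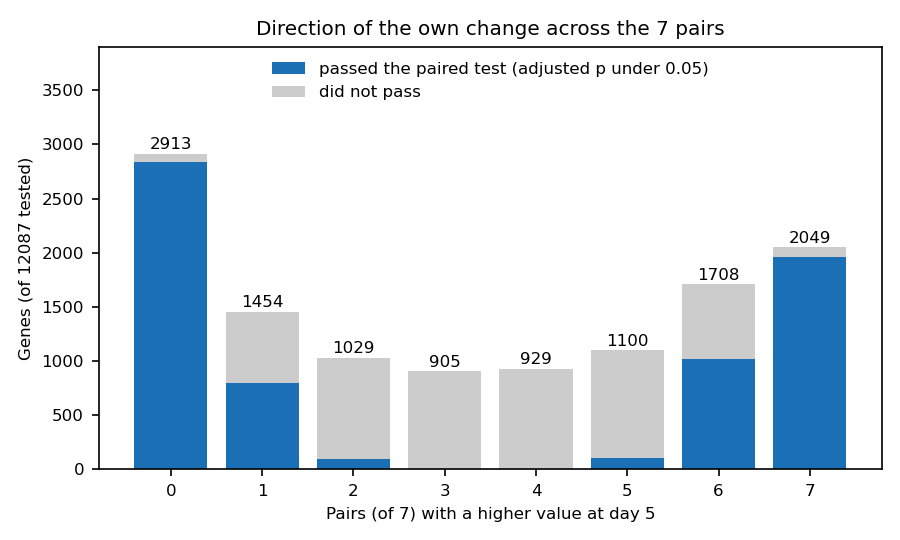
Number of genes, of 12087 tested, by how many of the 7 pairs were higher at day 5 (horizontal axis), with the genes that passed the paired limma test in blue and the others in grey. Both ends hold more genes than the middle: 2913 genes were lower in every pair and 2049 higher in every pair, against 905 and 929 with 3 and 4 pairs higher.

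The shared part outweighed what set the arms or the animals apart. Of the summed squares of all changes over all genes, 75.4% lay in the mean of the 7 pairs, 10.9% in differences between the arm means and 13.8% in differences between mice of an arm. These parts rest on 1, 2 and 4 degrees of freedom, so the shares of arms and of mice are not like for like. Across genes, which are not independent replicates, the changes of any 2 mice correlated at 0.544 to 0.897. The highest of these 21 values joined mouse 3 of the DMSO arm with mouse 9 of the tofacitinib arm, and the lowest joined mice 2 and 6. The 5 values within an arm had a median of 0.754 and the 16 between arms a median of 0.709.

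The pairs nevertheless differed in size. Regressed on the mean of the other 6, the changes had a slope of 1.32 in mouse 3, 1.22 in mouse 8 and 1.23 in mouse 9, against 0.859 in mouse 2, 0.741 in mouse 4, 0.625 in mouse 6 and 0.704 in mouse 7. A change of at least 1 was reached by 3577 to 3991 genes in the first 3 mice and by 1839 to 2674 in the other 4. These 3 mice also stood apart before any treatment. On the leading component of the day-0 arrays, which held 54.6% of their variance, mice 3, 8 and 9 scored -24.1, -34.9 and -14.6, together with the unpaired mouse 1 at -52.7, while mice 2, 4, 6 and 7 scored 9.22 to 33.1. At day 0 the mean level of 21 adipocyte genes was 8.76 to 9.18 in mice 3, 8 and 9 and 9.81 to 10.25 in mice 2, 4, 6 and 7. At day 5 it was 10.16 to 10.70 in all 7, so the larger adipocyte rises began from lower day-0 levels. Counts that rest on these 3 pairs are therefore given without them as well, from a fit to the other 4 that was added after the data were seen. In that fit 3059 genes passed, 1206 higher and 1853 lower, and 2994 of them had also passed with all 7. All list counts below stand beside 25.4% of all genes higher and 30.8% lower with the 7 pairs. Counts without mice 3, 8 and 9 stand beside 1206 and 1853 of 12087 genes. Fewer calls in that fit are thus not in themselves a trait of a list.

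**Figure D2:**
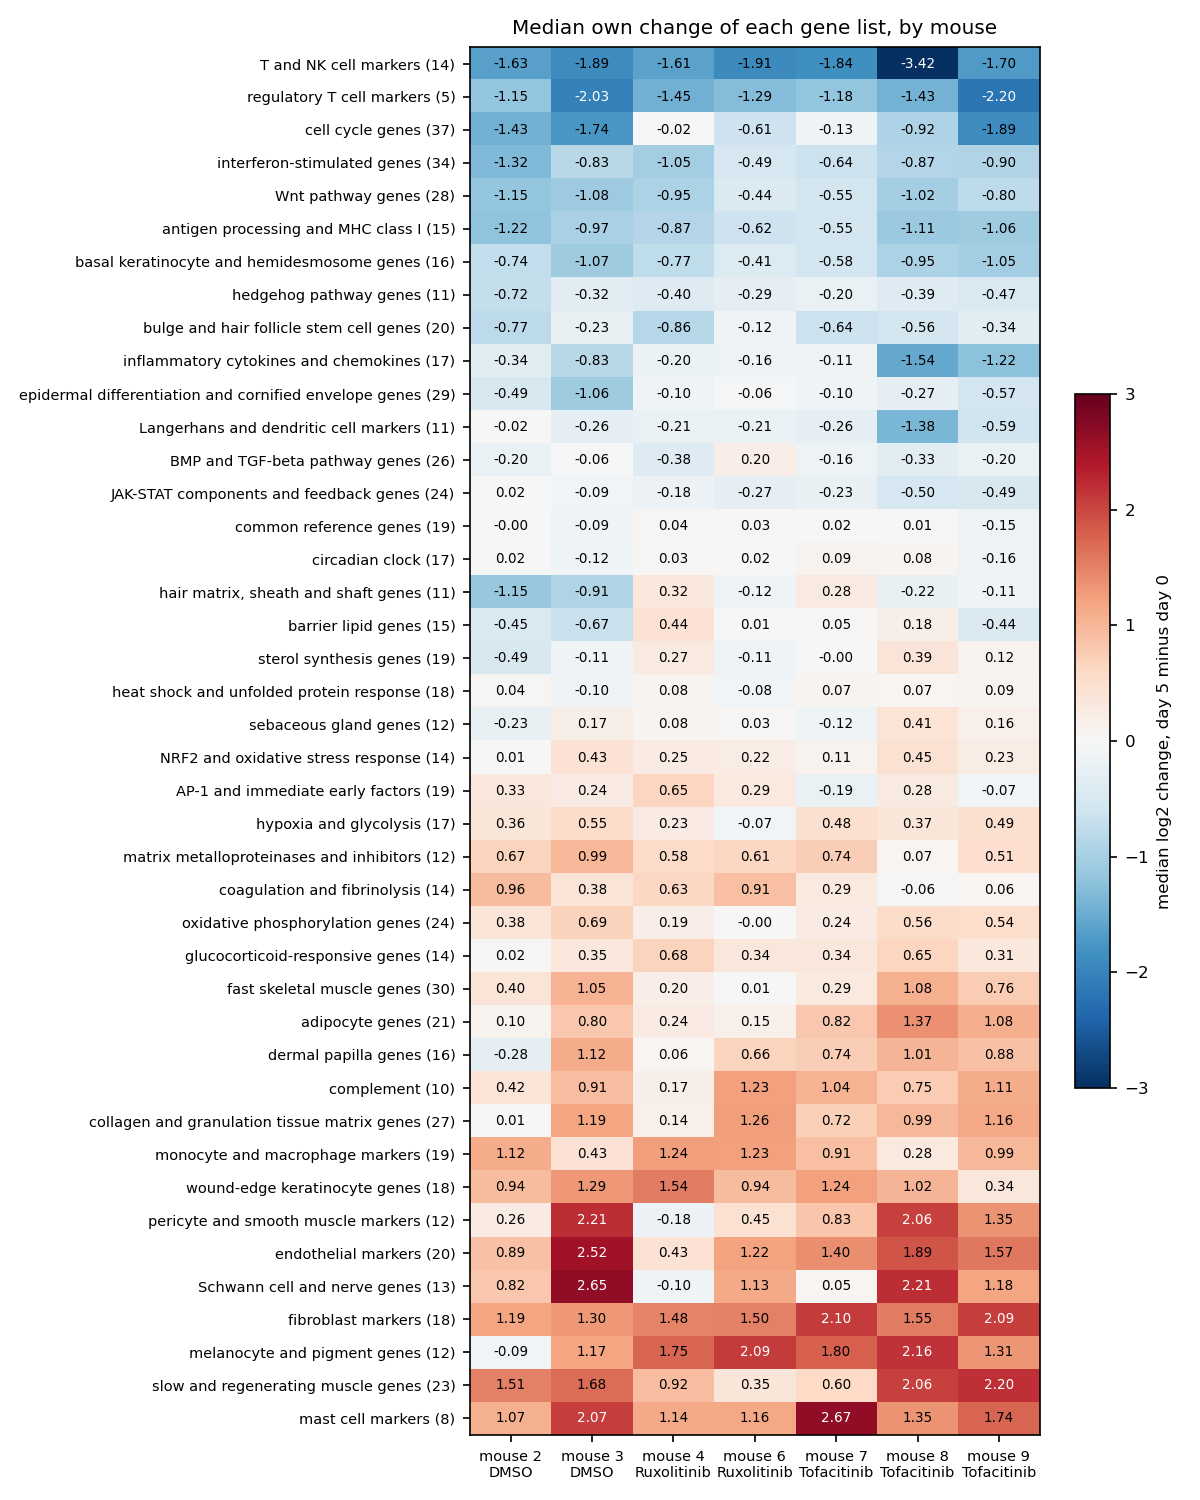
Median log2 change of each gene list (rows, with the number of tested members) in each mouse (columns, with its arm), on a colour scale from -3 (blue) to 3 (red). The median of T and NK cell markers ran from -1.61 to -3.42, whereas adipocyte, pericyte and endothelial lists were higher in mice 3, 8 and 9 than in mice 2 and 4.

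The rise with the largest minimum over the 7 mice belonged to Procr, which encodes the endothelial protein C receptor, a surface receptor of the anticoagulant pathway that is also found on epithelial cells. At day 0 Procr ranged from 2.65 to 4.13 around a median of 3.11, and at day 5 from 7.61 to 8.37 around a median of 7.86. The 7 day-5 arrays thus lay close together and far above every day-0 array. The change was 4.74 ± 0.22 (26.7-fold, adjusted p = 1.37e-05), and the smallest rise of any mouse was 3.73. Fosl1, which encodes the AP-1 subunit FRA1, had the largest mean rise of all, from a median of 3.77 (2.56 to 8.47) to 9.68 (8.70 to 10.60). The change was 5.20 ± 0.61 (adjusted p = 0.000236), but 1 day-0 array, that of mouse 7, was already at 8.47, and the second probe set of Fosl1 rose by only 1.22. Tmprss11a, a membrane serine protease of epithelia, rose by 4.49 ± 0.45, with 4 of its 7 day-0 arrays at background. Fam107a, which encodes an actin-associated protein, rose by 4.70 ± 0.30 from a day-0 median of 3.10 to 7.56 (2.75 by its other probe set). Cytl1, which encodes a small secreted protein, was at background in every day-0 array and had a day-5 median of 6.07, a rise of at least 11.1-fold against the background limit.

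Keratinocyte genes of the wound edge rose as a group but not without exception. Of 18 tested genes of this list (29 listed), 10 rose (25.4% of all genes did), 3 fell and 5 did not pass, and the median change was 1.05. All 10 rises and all 3 falls ran the same way in all 7 pairs, and the counts were the same without mice 3, 8 and 9. Sprr1b, a precursor of the cornified envelope made by stressed epidermis, went from 6.38 (4.51 to 8.74) to 10.73 (10.39 to 11.30). Its rise of 3.92 ± 0.53 (adjusted p = 0.000466) had no overlap between the days. Krt16, a keratin of injured and hyperproliferative epidermis, went from 7.69 (6.22 to 8.32) to 10.73 (9.92 to 11.40), a rise of 3.30 ± 0.31 (adjusted p = 9.77e-05). Its partner Krt6b rose by 1.99 and Epgn, which encodes the growth factor epigen, by 2.82. Tubb6, a beta-tubulin, rose by 1.92 ± 0.21. The falls were of Tgm1, which encodes a cross-linking enzyme of the cornified envelope (-1.90), of Lamb3, a chain of the basement membrane protein laminin-332 (-1.45 ± 0.12), and of Krt17, another injury keratin (-1.05 ± 0.13). Krt6b, Epgn and Tgm1 were picked after their values were seen.

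**Figure D3:**
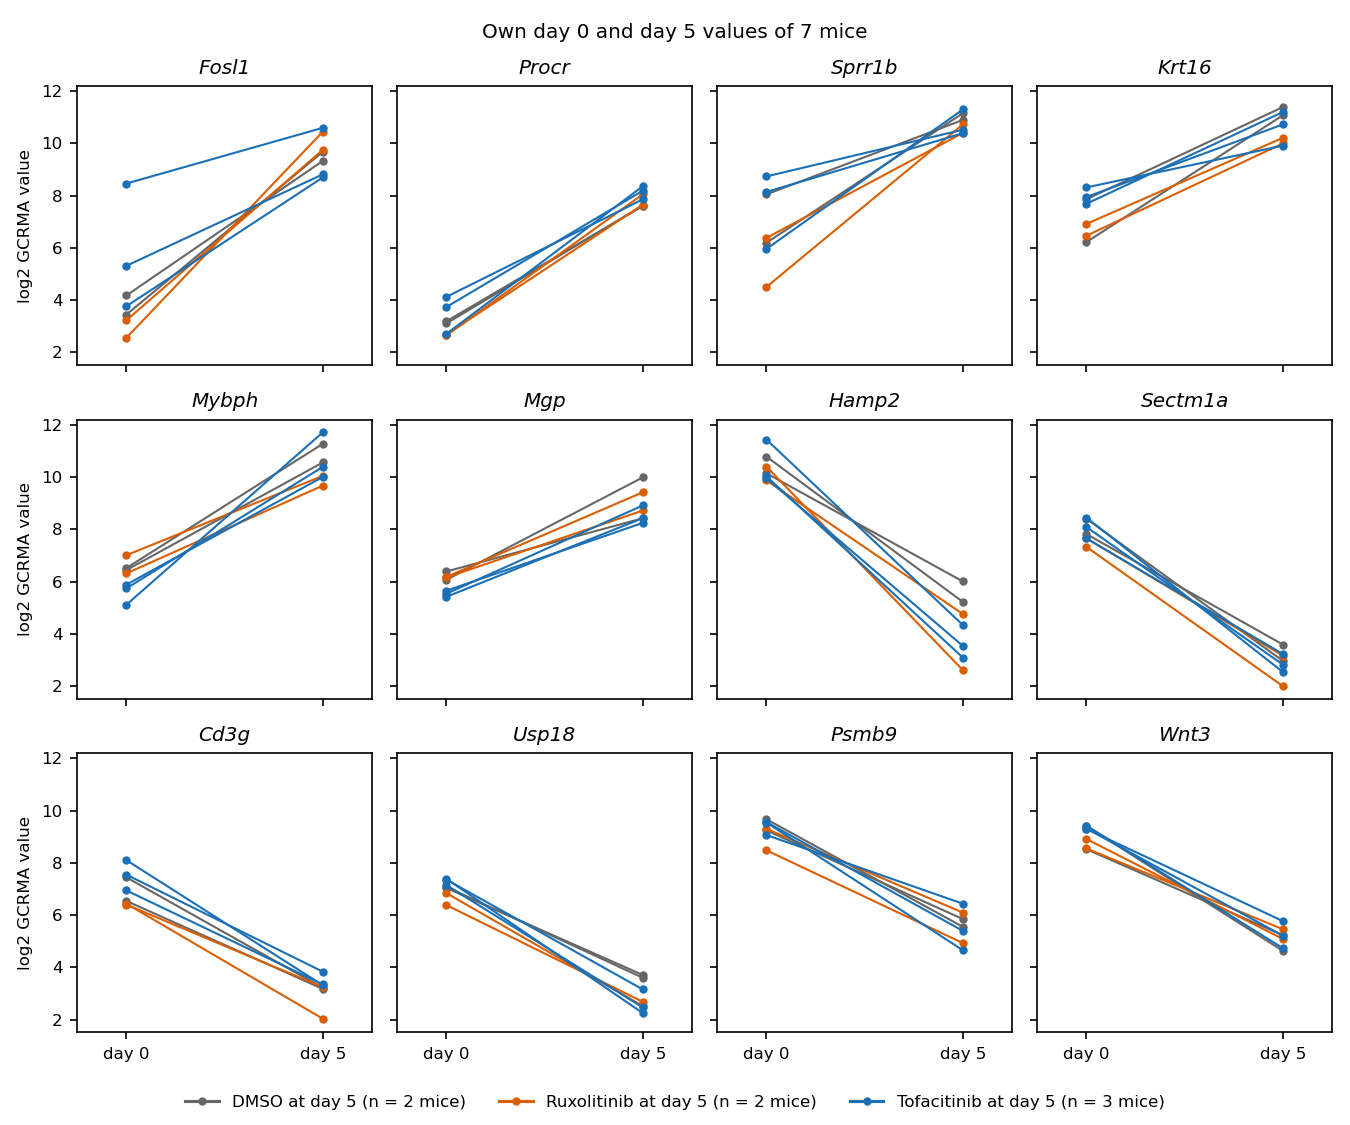
Log2 values of 12 genes at day 0 and day 5, with a line per mouse coloured by what was applied (DMSO grey, n = 2; ruxolitinib orange, n = 2; tofacitinib blue, n = 3). Every line rises for Fosl1, Procr, Sprr1b, Krt16, Mybph and Mgp and falls for Hamp2, Sectm1a, Cd3g, Usp18, Psmb9 and Wnt3, and the 2 days overlap for none of the 12 genes.

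Among AP-1 factors, matrix proteases and clotting genes both rises and falls were found. Of 19 AP-1 and immediate early genes, which encode factors induced within minutes of a stimulus, 7 rose, 1 fell and 11 did not pass, against 25.4% of all genes higher and 30.8% lower, with a median of 0.26. Besides Fosl1, the small MAF protein gene Maff rose by 2.28 ± 0.33 and the nuclear receptor gene Nr4a1 by 2.72 ± 0.41, while Egr1, picked after its value was seen, stood at 0.01. Of 12 metalloproteinase and inhibitor genes 6 rose and 3 fell. Mmp3, which encodes stromelysin-1, went from 6.41 (6.04 to 6.84) to 8.86 (7.41 to 10.34), a rise of 2.34 ± 0.35 without overlap, and the inhibitor gene Timp4 rose by 2.38 ± 0.41. Mmp9, which encodes gelatinase B, moved against them and fell by 3.10 ± 0.39 in all 7 pairs (-0.93 on its other probe set). Of 14 coagulation and fibrinolysis genes 7 rose and 3 fell. After Procr, the largest rises in that list were those of Vwf, the gene of von Willebrand factor, by 2.20 ± 0.27 and of F13a1, a clot-stabilising transglutaminase, by 1.54 ± 0.21.

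Because several of these genes moved together, the stretch around each start site was searched for the AP-1 motif TGANTCA on either strand. The windows, from RefSeq on GRCm38.p6, run from 250 bases before a gene's start to 50 after it. The motif, in capitals below, was present 111 bases before the start of Sprr1b (chr3:92438834-92438940, minus strand), 154 before that of Procr (chr2:155751013-155751119, plus strand) and 46 before that of Mmp3 (chr9:7445726-7445832, plus strand). Hamp2, the gene that fell most, also held it, 84 bases before its start (chr7:30924209-30924315, minus strand).
Sprr1b: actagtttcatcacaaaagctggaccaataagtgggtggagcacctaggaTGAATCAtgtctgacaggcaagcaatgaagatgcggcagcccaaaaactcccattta
Procr: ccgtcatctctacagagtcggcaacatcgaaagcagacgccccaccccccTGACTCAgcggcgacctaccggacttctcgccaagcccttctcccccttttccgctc
Mmp3: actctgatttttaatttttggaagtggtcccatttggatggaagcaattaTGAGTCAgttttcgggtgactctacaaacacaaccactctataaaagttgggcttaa
Hamp2: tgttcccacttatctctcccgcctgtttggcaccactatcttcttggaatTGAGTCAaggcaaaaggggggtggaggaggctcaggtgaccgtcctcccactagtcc
The motif was in 7.66% of 744 windows of genes that rose in all 7 pairs by a mean of at least 1 and in 7.19% of 1252 windows of genes that fell likewise. Both shares lay above the 5.42% of 12436 windows of tested genes, from which these genes come, and below the 7.81% of all 32851 windows. These shares were not tested. A match is a description of letters and not of binding. Only genes with a match are shown for a motif, here and for Oas1a, Cry1 and Cish below. How many of the named genes lack a match was not counted.

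The largest falls exceeded the largest rises. Hamp2, which encodes a hepcidin-family peptide, went from 10.15 (9.87 to 11.44) at day 0 to 4.33 (2.61 to 6.0) at day 5. Its change was -6.16 ± 0.40, or 71.3-fold lower (adjusted p = 2.71e-05), and the weakest change of any mouse was -4.14. Sectm1a, which encodes a secreted and transmembrane protein, fell by 5.02 ± 0.21 (adjusted p = 1.37e-05), from 7.82 (7.33 to 8.45) to 2.96 (1.99 to 3.59), where 1 array was at background. Its weakest change was -4.23, the strongest such value among the named falls. Ifitm6, a member of the interferon-induced transmembrane family, fell by 4.86 ± 0.54 and spread more, from -2.27 in mouse 2 to -6.91 in mouse 8. Slc2a5, the fructose transporter gene, fell by 4.74 ± 0.27 and was at background in 5 of 7 day-5 arrays. Ackr2, which encodes an atypical receptor that removes chemokines, fell by 4.58 ± 0.39. Smim5 (-4.69 ± 0.24), the RAS effector gene Rin1 (-4.54 ± 0.27), Slc27a3 of the fatty acid transport family (-4.39 ± 0.21), the potassium channel gene Kcnj16 (-4.33 ± 0.19), the G protein subunit gene Gna14 (-4.27 ± 0.22) and Fam83f (-4.15 ± 0.27) were the others, with Mir205hg, the host gene of a microRNA (-4.48 ± 0.43). That all 12 fell in all 7 pairs without overlap between the days was a condition of their choice. The weakest of the 7 falls was -3.80 for Smim5, -3.69 for Slc27a3 and -3.38 for Kcnj16.

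T cell transcripts fell in every mouse. Of 14 tested T and NK cell markers (32 listed), 13 fell and 1 did not pass, against 30.8% of all genes lower, and the median change was -2.21. The mean level of the list was 5.26 to 6.52 at day 0 and 3.55 to 4.25 at day 5. Members could thus pass the filter, a value above 4 in at least 2 arrays, through day 0 alone. This count may therefore be set in part by the filter. Cd3g, which encodes a chain of the T cell receptor complex, went from 6.95 (6.40 to 8.10) to 3.24 (2.03 to 3.83). It changed by -3.90 ± 0.20 (14.9-fold lower, adjusted p = 1.37e-05), and 1 day-5 array was at background. Cd3e and Cd3d, the partners of Cd3g and picked with their values known, stood at -2.92 and -2.86. Cd7, an early T cell surface antigen gene, fell by 2.70 ± 0.23, and the adaptor gene Lat by 1.02 ± 0.10. Xcl1, the lymphotactin gene, was at background in all 7 day-5 arrays and so was at least 2.67-fold lower. The median of the list was -1.61 to -1.91 in 6 mice and -3.42 in mouse 8. In the fit without mice 3, 8 and 9, 10 of the 14 fell, with a median of -1.98. Of 9 listed regulatory T cell genes 5 were tested, without Foxp3, Il2ra, Tnfrsf9 and Tigit, and 4 of the 5 fell. Whether their signal came from regulatory T cells was not tested. Tnfrsf18, which encodes the receptor GITR, fell by 2.59 ± 0.17, Ctla4, an inhibitory receptor gene, by 1.59 ± 0.31 and Ikzf2, the gene of the factor Helios, by 1.57 ± 0.15 (-4.33 on its other probe set).

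Interferon-stimulated genes, which encode antiviral effectors and regulators induced through JAK and STAT signalling, fell in the DMSO mice as well as in the inhibitor mice. Of 34 tested genes (43 listed), 25 fell, 2 rose and 7 did not pass, with a median of -0.84. Of all genes, 30.8% fell and 25.4% rose. The median of the list was -1.32 and -0.83 in the DMSO mice, -1.05 and -0.49 with ruxolitinib and -0.64 to -0.90 with tofacitinib. Usp18, which encodes a brake on the interferon receptor, went from 7.08 (6.38 to 7.39) to 2.68 (2.25 to 3.71), a change of -4.13 ± 0.22 (adjusted p = 1.37e-05). Iigp1, an immunity-related GTPase gene, fell by 2.34 ± 0.21, Parp14 by 2.17 ± 0.17 (-0.68 on its other probe set) and Oas1a, which encodes an enzyme that senses double-stranded RNA, by 1.77 ± 0.16. Ifit3 and Ifi27l2a, picked after their values were seen, went the other way, at 0.68 and 0.95. In mice 2, 4, 6 and 7 alone, 18 of the 34 fell and 1 rose.

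Genes of antigen processing for MHC class I fell with them. Of 15 tested genes 12 fell, 0 rose and 3 did not pass, and all 12 fell in all 7 pairs (24.1% of all genes were lower in all 7). Psmb9, a catalytic subunit of the immunoproteasome, went from 9.30 (8.48 to 9.67) to 5.55 (4.65 to 6.44), a change of -3.71 ± 0.24 (adjusted p = 2.71e-05). Psmb8, another such subunit, fell by 2.94 ± 0.18, Tap1, the peptide transporter gene, by 2.55 ± 0.19 and the class Ib gene H2-M3 by 2.26 ± 0.17. A second probe set of Psmb8 stood at -0.34. The count of falls was 10 of 15 without mice 3, 8 and 9.

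Start-site sequences are shown for an interferon-stimulated gene and for a pair of neighbouring antigen processing genes. Oas1a (chr5:120907496-120907595, minus strand) holds GAAA followed by any 2 bases and a further GAAA, a pattern like that bound by interferon-regulated factors, as 2 overlapping matches 20 and 14 bases before its start. Psmb9 and Tap1 start 226 bases apart on opposite strands, and their windows share 275 bases. The stretch shown is that of Tap1 on its own strand, up to 30 bases after its start and 280 bases long (chr17:34187306-34187585), and the sequence between the 2 starts lies upstream of both genes.
Oas1a: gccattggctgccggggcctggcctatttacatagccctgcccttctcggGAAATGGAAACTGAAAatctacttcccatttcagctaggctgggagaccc
Tap1: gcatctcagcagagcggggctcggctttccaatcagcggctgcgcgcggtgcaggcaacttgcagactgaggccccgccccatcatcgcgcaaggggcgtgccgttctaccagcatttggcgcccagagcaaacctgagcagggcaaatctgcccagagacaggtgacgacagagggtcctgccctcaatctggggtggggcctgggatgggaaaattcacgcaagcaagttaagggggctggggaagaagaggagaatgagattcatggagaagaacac
This spaced GAAA pattern, searched on both strands, was in 3.59% of windows of genes that fell in all 7 pairs by a mean of at least 1 and in 2.42% of those that rose likewise, against 2.88% of windows of tested genes and 3.44% of all windows.

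Among other immune markers, those of macrophages and mast cells mostly rose, while those of Langerhans and dendritic cells fell more often than they rose. Of 19 monocyte and macrophage markers 11 rose and 2 fell, with a median of 0.96, and 12 rose without mice 3, 8 and 9. The complement component genes C1qa, C1qb and C1qc, products of tissue macrophages, rose by 1.37 ± 0.22, 1.04 ± 0.15 and 1.51 ± 0.17, while Ccr2, the receptor gene of incoming monocytes and picked with its value known, stood at -1.60. Of 8 mast cell markers 7 rose. Their mean level was 3.73 to 4.58 at day 0 and 4.76 to 6.22 at day 5, so members could pass the filter through day 5 alone. Hdc, the histamine-forming enzyme gene, rose by 2.05 ± 0.15, from 4.14 (3.37 to 4.84) to 6.03 (5.46 to 7.48), and the protease genes Mcpt4 and Cma1 by 1.80 ± 0.20 and 1.91 ± 0.23. The exception, Hpgds, stood at -2.58 (picked with its value known). Of 16 neutrophil markers only S100a8 and S100a9 were tested, and neither passed, with changes of 0.49 ± 0.23 and 0.77 ± 0.34. Of 11 Langerhans and dendritic cell markers 6 fell, all of them in all 7 pairs, and 2 rose (3 fell without mice 3, 8 and 9). The falls included those of the class II genes H2-DMa (-1.52 ± 0.29) and Cd74 (-0.93 ± 0.19). The 2 rises were those of Zbtb46 (1.67) and Mfge8 (0.84), both in all 7 pairs.

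Signalling proteins of inflammation moved both ways. Of 17 tested cytokines and chemokines (34 listed), 8 fell and 4 rose, against 30.8% and 25.4% of all genes, with a median of -0.54. Without mice 3, 8 and 9, 5 fell and 5 rose. Cxcl14, a chemokine gene of resting epidermis, fell by 2.15 ± 0.13 and the alarmin gene Il33 by 1.87 ± 0.23. Cxcl1, a neutrophil attractant gene, rose by 2.24 ± 0.30, from 2.85 (2.01 to 3.69) to 4.92 (3.88 to 6.12), and the eosinophil attractant gene Ccl11 by 1.86 ± 0.15. Of 10 complement genes 6 rose, among them C1s1 by 2.71 ± 0.23, C1ra by 1.81 ± 0.19, the inhibitor Serping1 by 1.53 ± 0.14 and the receptor gene C5ar1 by 2.16 ± 0.27. The list's median was 0.76, and without mice 3, 8 and 9, where 4 of the 10 rose, it was 0.67.

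In the epidermis, genes that anchor basal cells fell most evenly. Of 16 basal keratinocyte and hemidesmosome genes 14 fell and 1 rose, 13 of them lower in all 7 pairs, and the median was -0.80. Itgb4, the hemidesmosome integrin gene, went from 8.49 (7.77 to 9.22) to 6.22 (5.80 to 6.92), a change of -2.34 ± 0.22. Lama3, the partner chain of Lamb3, fell by 1.84 ± 0.20 and Col17a1, a transmembrane collagen gene of the hemidesmosome, by 1.21 ± 0.13. Itgb1, picked with its value known, was the gene that rose, at 0.94. The count of falls was 9 of 16 without mice 3, 8 and 9. Of 29 differentiation and cornified envelope genes 14 fell, 2 rose and 13 did not pass. The mean level of the list went from 10.65 to 10.14 and from 10.95 to 9.90 in the DMSO mice, from 10.52 to 10.70 and from 10.75 to 10.88 with ruxolitinib, and from 10.87 to 10.91, 11.21 to 11.04 and 11.13 to 10.68 with tofacitinib. The mean thus fell in mice 2, 3, 8 and 9 and was higher in mice 4, 6 and 7, in which the median change was nevertheless below 0 (-0.10, -0.06 and -0.10). For 13 of the 29 genes the change differed between arms at an unadjusted p under 0.05, against 10.8% of all genes, and 0 passed after adjustment in limma. The falls were small, as for Cdsn (-0.90 ± 0.11), Lce1m (-0.83 ± 0.15) and Krt77 (-0.76 ± 0.14). Only 9 of the 29 fell without mouse 2, and 4 fell and 3 rose without mice 3, 8 and 9. Of 15 barrier lipid genes 3 fell and 1 rose, of 19 sterol synthesis genes 6 fell and 4 rose, and of 12 sebaceous gland genes 3 fell and 1 rose, shares near or below the 56.2% of all genes that passed. Without mouse 3 the falls among barrier lipid genes numbered 1. The sebaceous lipid gene Scd3 was the largest change there, at -2.50 ± 0.25.

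Cell cycle genes were lower, but more so in some mice than in others. Of 37 tested genes 26 fell and 1 rose, with a median of -0.96, and 17 fell in all 7 pairs. Kif20a, a mitotic kinesin gene, fell by 1.63 ± 0.19, Anln, the gene of the cytokinesis protein anillin, by 1.81 ± 0.22, Aurkb, a mitotic kinase gene, by 1.88 ± 0.25 and Ccnd1, the cyclin D1 gene, by 1.21 ± 0.18. The median of the list was -0.02 in mouse 4, -0.13 in mouse 7 and -0.61 in mouse 6, against -0.92 to -1.89 in mice 2, 3, 8 and 9. In mice 2, 4, 6 and 7 alone, 8 of the 37 fell.

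Genes of hair follicle signalling fell together. Of 28 tested Wnt pathway genes 18 fell, 6 rose and 4 did not pass, with a median of -0.84, and 15 fell and 4 rose without mice 3, 8 and 9. Ligands led the list. Wnt3 went from 9.30 (8.52 to 9.43) to 5.21 (4.63 to 5.77), a change of -3.90 ± 0.22 (15.0-fold lower, adjusted p = 1.75e-05), Wnt3a fell by 2.70 ± 0.19 and Wnt4 by 1.62 ± 0.12. Among receptors, Fzd10 fell by 3.53 ± 0.23, from 5.99 (5.32 to 6.61) to 2.40 (1.89 to 2.99), with 4 of 7 day-5 arrays at background. Among feedback genes picked with their values known, Axin2 stood at -1.18 and Rnf43 at -1.93. The 6 rises included those of secreted inhibitor genes, again picked with their values known: Sfrp2 at 2.62, Dkk2 at 2.20 and Sfrp5 at 1.71.

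The BMP, hedgehog and follicle lists were more divided. Rspo3, which encodes a secreted enhancer of Wnt signalling and stands in the dermal papilla list, fell by 4.05 ± 0.26, from 6.98 (6.65 to 8.17) to 3.16 (2.49 to 4.12). That list held 8 rises and 4 falls in 16 genes, with a median of 0.70, and its member Fgf7 rose by 1.56 in all 7 pairs. Without mice 3, 8 and 9 the list held 4 rises and 5 falls, with a median of 0.34. Of 26 BMP and TGF-beta genes 11 fell and 7 rose, with the ligand genes Bmp4, Bmp7 and Bmp2 at -2.51 ± 0.17, -1.19 ± 0.14 and -1.09 ± 0.10 and the receptor gene Tgfbr1 at 0.76 ± 0.09. Falls numbered 6 and rises 5 without mice 3, 8 and 9. Of 11 hedgehog genes 6 fell, among them the co-receptor genes Boc (-1.75 ± 0.21), Cdon (-1.10 ± 0.13) and Gas1 (-0.97 ± 0.13), and 2 rose, a count that was 0 without mouse 7. Falls numbered 4 and rises 0 without mice 3, 8 and 9. Of 20 bulge stem cell genes 11 fell and 2 rose, including Fgf18, a growth factor gene of the resting follicle, at -2.67 ± 0.22 and Lgr6, a receptor gene of follicle stem cells, at -1.52 ± 0.18, and 10 fell without mice 3, 8 and 9. Only 11 of 31 genes of hair matrix, sheath and shaft were tested, with 3 falls and 2 rises. Krt25, an inner root sheath keratin gene among the rises (1.53 ± 0.35), was at background in 6 of 7 day-0 arrays.

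Pigment cell genes rose in 6 mice. Of 12 tested genes 10 rose and 1 fell, with a median of 1.65, but only 3 rose in all 7 pairs. The mean level of the list was 4.76 to 5.80 at day 0 and 5.47 to 7.68 at day 5. Tyr was at background in all 7 day-0 arrays. Members could thus pass the filter through day 5 alone, and the count may be set in part by it. Dct, a melanin synthesis enzyme gene, changed by 2.18 to 3.27 in 6 mice and by -0.63 in mouse 2, and Tyrp1, another such gene, by 1.99 to 3.97 in 6 mice and by -0.19 in mouse 2. Ednrb, an endothelin receptor gene needed by melanocytes, rose in all 7 by 2.23 ± 0.23, and Kitl, which encodes the KIT ligand, by 1.52 ± 0.14. Without mice 3, 8 and 9, 5 of the 12 rose, with a median of 1.69. The median of the list was -0.09 and 1.17 in the DMSO mice and 1.31 to 2.16 in the 5 inhibitor mice. For 4 of the 12 genes the change differed between arms at an unadjusted p under 0.05 in limma, against 10.8% of all genes. After adjustment 0 passed.

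Below the epidermis most marker lists rose. Of 18 fibroblast genes 14 rose and 1 fell, 15 were higher in all 7 pairs (17% of all genes were) and the median was 1.65. Mgp, which encodes a matrix protein that limits calcification, went from 6.07 (5.42 to 6.38) to 8.72 (8.25 to 9.99), a change of 2.96 ± 0.21 (adjusted p = 3.23e-05). Pi16, a gene of adventitial fibroblasts, rose by 2.90 ± 0.25 (1.66 on its other probe set), Clec3b, the tetranectin gene, by 1.90 ± 0.15 and the transcription factor gene Twist2 by 1.83 ± 0.18. In mice 2, 4, 6 and 7 alone, 12 of 18 rose, with a median of 1.52, against a median of 1.58 in mice 3, 8 and 9.

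Of 27 collagen and granulation tissue genes 16 rose and 2 fell, with a median of 0.86. Fn1, the fibronectin gene, went from 6.38 (5.55 to 7.35) to 8.34 (8.14 to 8.65), a rise of 2.05 ± 0.20, and the proteoglycan gene Bgn rose by 1.39 ± 0.21. The fibrillar collagen genes Col1a1 and Col3a1, picked with their values known, did not pass, at 0.19 and 0.37. Without mice 3, 8 and 9, 8 of 27 rose. Of 20 endothelial markers 19 rose, all of them in all 7 pairs, and 13 rose without mice 3, 8 and 9. Their mean level was 3.36 to 4.55 at day 0 and 5.16 to 5.88 at day 5. Members could thus pass the filter through day 5 alone, and the count may be set in part by it. Tek, a vascular receptor kinase gene, went from 4.51 (3.54 to 5.95) to 7.04 (6.78 to 7.85), a rise of 2.41 ± 0.30, the endothelial factor gene Sox17 rose by 2.06 ± 0.25, and the VEGF receptor gene Flt1 by 3.05 ± 0.32 (1.88 on its other probe set). The list's median was 0.93 without mice 3, 8 and 9 and 2.03 in those 3.

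Muscle genes rose in both lists, with a larger median for slow or regenerating muscle than for fast muscle, the type that dominates the muscle sheet of mouse skin. Of 23 slow and regenerating muscle genes 16 rose and 1 fell, with a median of 1.68, and of 30 fast muscle genes 22 rose and 0 fell, with a median of 0.55. The mean level of the fast muscle genes was already 11.79 to 12.76 at day 0 and was 12.72 to 13.15 at day 5. That of the slow and regenerating genes was 5.02 to 6.10 at day 0 and 6.84 to 8.27 at day 5. Members could pass the filter through day 5 alone, as Actc1 lay below 4 in all 7 day-0 arrays. The count of rises in the slow and regenerating list and its larger median may therefore be set in part by the filter. Mybph, a myosin-binding protein gene, went from 6.31 (5.11 to 7.01) to 10.39 (9.67 to 11.72), a rise of 4.38 ± 0.37 (adjusted p = 6.15e-05). Actc1, the cardiac actin gene that is also used by immature muscle, went from 2.72 (2.51 to 3.74) to 7.04 (5.49 to 9.32), a rise of 4.26 ± 0.42. Myl2 and Tnnt1, slow-fibre genes of a myosin light chain and a troponin, rose by 4.90 ± 0.59 and 4.83 ± 0.60, with a range over mice of 3.22 to 7.91 and 2.10 to 7.58. Ankrd1, a gene induced in strained muscle, rose by 4.13 ± 0.53. Among fast-fibre genes, Casq1, the calcium-storage protein gene, rose by 1.03 ± 0.20 and Actn3 by 0.93 ± 0.18. The fast myosin gene Myh4 rose by 0.68 ± 0.16 on the probe set used, but by 2.45 on its other one. Without mice 3, 8 and 9, 9 slow and regenerating but only 2 fast muscle genes passed as rises, with medians of 1.14 and 0.25. In the other 4 mice 14 of the 23 and 16 of the 30 were still higher in every pair.

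Lists of fat, nerve, vessel wall and mitochondria had larger medians in mice 3, 8 and 9 (1.04, 1.91, 1.99 and 0.59) than in the other 4 (0.32, 0.68, 0.50 and 0.22). Without these 3 mice fewer of their genes passed, as was so for all genes. Of 21 adipocyte genes 14 rose and 2 fell (9 rose without mouse 9, and 4 without mice 3, 8 and 9). Lep, the leptin gene, went from 6.89 (4.13 to 7.93) to 9.27 (8.75 to 9.80), a rise of 3.25 ± 0.47 that was 1.34 in mouse 2 and 5.40 in mouse 8. Of 13 Schwann cell and nerve genes 9 rose and 3 fell (4 and 1 without the 3 mice). Ngfr, the low-affinity nerve growth factor receptor gene, fell by 3.55 ± 0.26, whereas Cntnap2, an axonal membrane protein gene, rose by 3.28 ± 0.34. Of 12 pericyte and smooth muscle genes 7 rose and 1 fell (2 and 2 without the 3 mice), with Tagln, a smooth muscle actin-binding protein gene, at 2.47 ± 0.42. Of 24 oxidative phosphorylation genes 18 rose (11 without mouse 3, and 0 without the 3 mice), none by more than 0.87 ± 0.20, the value of Sdhb. In the other 4 mice 12 of the 24 were still higher in every pair. The share of each layer in the 2 biopsies was not measured, and its part in these results was not tested.

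The circadian clock is a feedback loop in which ARNTL, paired with CLOCK or NPAS2, drives the Per, Cry and Nr1d genes, whose products repress the loop. The same pair drives the output genes Dbp, Tef and Hlf. Of 17 tested clock genes 3 rose, 4 fell and 10 did not pass, where 56.2% of all genes passed, and 8 moved one way in all 7 pairs, where 41.1% of all genes did. These counts do not set the clock list apart from genes in general. Among repressors, Per2 went from 7.08 (6.56 to 7.65) to 8.78 (8.37 to 9.57), a rise of 1.73 ± 0.13 (adjusted p = 3.79e-05, but 0.57 on its other probe set), and Cry1 from 8.92 (8.79 to 9.49) to 10.80 (10.47 to 11.33), a rise of 1.71 ± 0.14 (adjusted p = 5.30e-05). Nr1d1, which encodes the repressor REV-ERB alpha, went from 9.71 (9.57 to 9.93) to 7.82 (6.95 to 8.28), a change of -2.03 ± 0.19 (adjusted p = 8.54e-05). None of these 3 genes overlapped between the days. The activator gene Npas2 fell by 1.46 ± 0.14. The remaining clock genes are named after their values were seen. Nfil3, a repressor of the output genes, rose by 2.55 ± 0.25, and the output genes Hlf and Dbp fell by 1.49 ± 0.21 and 0.88 ± 0.12. Arntl (-0.16 ± 0.16), Clock (-0.09 ± 0.12), Per3 (-0.17 ± 0.10), Tef (-0.03 ± 0.09) and Cry2 (0.24 ± 0.10) did not pass. The counts of 3 rises and 4 falls were the same without mice 3, 8 and 9. The time of day of each biopsy is not given, and its part in these changes was not tested.

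**Figure D4:**
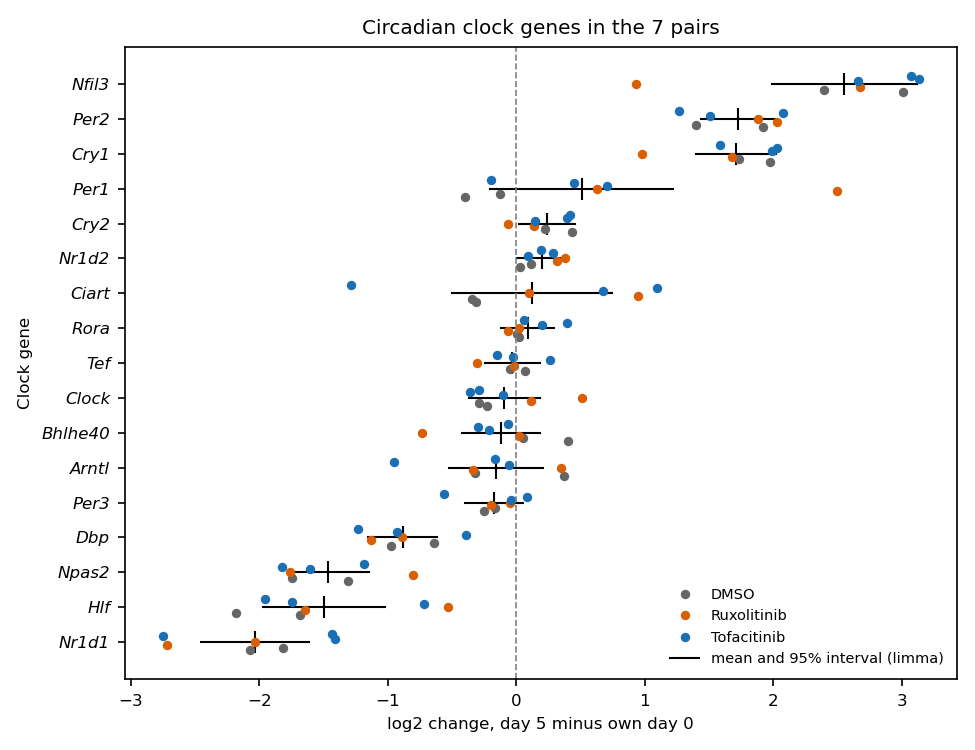
Log2 change, day 5 minus own day 0 (horizontal axis), of the 17 tested clock genes, with a point per mouse coloured by arm and the mean with its 95% interval from limma in black. Nfil3, Per2 and Cry1 lie above 0 and Dbp, Npas2, Hlf and Nr1d1 below 0 in all 7 mice, while Arntl and Clock lie on both sides.

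Cry1 carries the E-box CACGTG, the motif of the CLOCK complex, 60 bases before its start (chr10:85185059-85185164, minus strand, motif in capitals).
Cry1: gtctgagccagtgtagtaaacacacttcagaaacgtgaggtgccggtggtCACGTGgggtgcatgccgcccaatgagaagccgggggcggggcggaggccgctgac
This motif was in 8.06% of windows of genes that rose in all 7 pairs by a mean of at least 1 and in 8.15% of those that fell likewise, against 9.83% of windows of tested genes and 7.15% of all windows.

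The lists of general stress responses had small median changes. Their counts stand beside 25.4% of all genes higher and 30.8% lower. Of 18 heat shock and unfolded protein genes 3 rose and 3 fell, led by the chaperone cofactor gene Dnajb9 at 1.08 ± 0.12. Of 14 oxidative stress genes 5 rose and 2 fell, with Srxn1, the sulfiredoxin gene, at 1.48 ± 0.14 and Hmox1, the heme oxygenase gene, at -1.61 ± 0.27. Of 14 glucocorticoid-responsive genes 6 rose and 1 fell, with Sult1a1, a sulfotransferase gene, at 2.22 ± 0.31 and Tsc22d3, the GILZ gene, at 0.77 ± 0.18. Of 17 genes of hypoxia and glycolysis 9 rose and 3 fell (4 and 1 without mice 3, 8 and 9), with the vasodilator peptide gene Adm at 1.73 ± 0.15 and Vegfa, the main vascular growth factor gene, at 1.62 ± 0.25. The median of each of these 4 lists lay between 0.07 and 0.49.

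The arms were then compared for the change itself. A limma test of whether the 7 changes differed between DMSO, ruxolitinib and tofacitinib passed 0 of 12087 genes (0%), with a smallest adjusted p of 0.324, and 1309 genes (10.8%) had an unadjusted p under 0.05. With 2, 2 and 3 pairs this does not show that the arms were alike. The 2 DMSO pairs and the 5 inhibitor pairs share no animal, and their mean changes correlated at 0.889 across genes. Of genes with a mean change of at least 1 in both sets, 1883 had the same sign and 2 the opposite sign. A further 1331 reached 1 in the DMSO pairs only and 351 in the inhibitor pairs only. A mean of 2 pairs varies more than a mean of 5, so these counts do not stand on equal terms. Their difference is not read as a result.

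**Figure D5:**
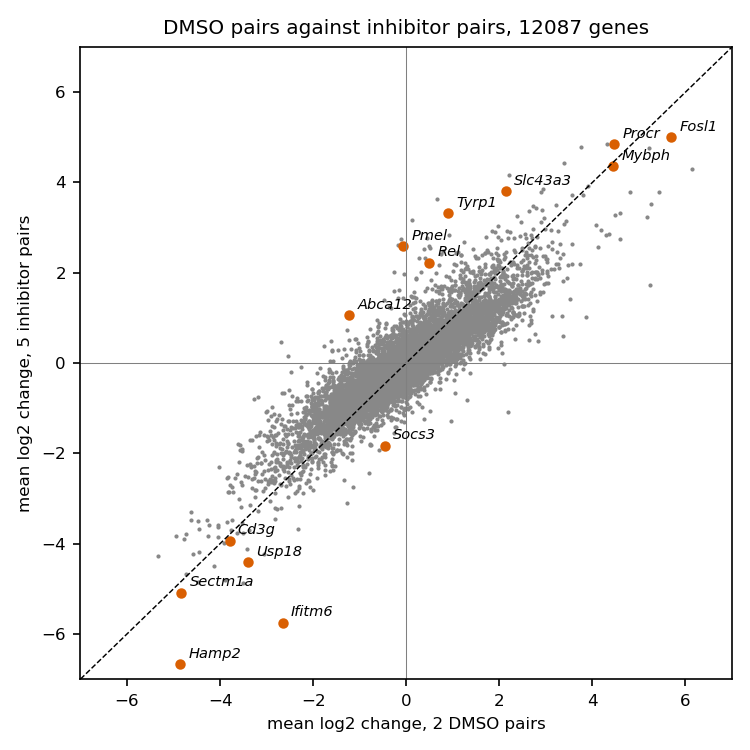
Mean log2 change of the 2 DMSO pairs (horizontal axis) against that of the 5 inhibitor pairs (vertical axis) for 12087 genes, with equality as a dashed line and 14 genes named in orange. Most genes lie along the line (r = 0.889), Procr, Mybph, Cd3g and Sectm1a near it, and Socs3, Pmel, Rel and Abca12 away from it.

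Among the genes with the smallest p between arms, Abca12, a lipid transporter gene of the epidermis, changed by -1.01 and -1.44 with DMSO, by 2.50 and 2.44 with ruxolitinib and by 0.45, 0.26 and -0.37 with tofacitinib (adjusted p = 0.324 in limma). Rel, which encodes an NF-kappaB subunit, changed by 4.88 and 4.48 with ruxolitinib and by -0.19 to 1.32 in the other 5 mice (adjusted p = 0.324). Slc43a3, a transporter gene, rose in all 7 mice, by 2.05 and 2.22 with DMSO and by 3.36 to 4.08 with the inhibitors (adjusted p = 0.426). In each of these 3 genes both DMSO changes lay below both ruxolitinib changes, yet none passed over all genes. They come from the 8 genes chosen for the smallest p between arms, so a gap between arms was a condition of their choice. Also among the 8, 1700109H08Rik and 2310016G11Rik went the other way. Their mean changes were 1.64 and 1.77 in the DMSO pairs and 0.42 and 0.31 in the inhibitor pairs.

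JAK-STAT genes passed at a share near that of all genes. Of 24 tested components and feedback genes (28 listed), 11 fell and 4 rose, against 30.8% and 25.4% of all genes. The count of rises was 0 without mouse 9, and 7 fell and 0 rose without mice 3, 8 and 9. Among the kinases, Jak1 stood at -0.16 ± 0.14 (adjusted p = 0.343) and Jak2 at 0.14 ± 0.08 (adjusted p = 0.180), while a second probe set of Jak2 stood at 1.35. Tyk2 fell by 1.52 ± 0.19, from 8.09 (7.58 to 8.32) to 6.49 (6.03 to 6.98). Among receptors and factors, the interferon receptor gene Ifnar1 fell by 0.96 ± 0.12 and Stat5a, a STAT of cytokine signalling, by 1.03 ± 0.11. Cish, a feedback inhibitor gene induced by STAT5, went from 9.29 (8.10 to 9.59) to 6.81 (6.05 to 7.99), a change of -2.12 ± 0.23 (adjusted p = 0.000170). It changed by -1.87 and -1.91 with DMSO, by -1.73 and -2.48 with ruxolitinib and by -1.80, -1.48 and -3.54 with tofacitinib, so the DMSO values lay within the inhibitor range. Socs3, a feedback inhibitor gene induced by STAT3, fell by 1.44 ± 0.24 over the 7 pairs, with changes of -0.06 and -0.87 with DMSO and of -1.54 to -2.17 in the 5 inhibitor mice. Socs3 did not pass the limma test between arms (adjusted p = 0.426). How many of all genes show such a gap between 2 and 5 pairs was not counted, so the gap is not read as a result.

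The STAT-like pattern TTCNNNGAA was searched in the same windows on both strands. Cish held 2 matches at its start, of which the first begins at the start itself and the second 11 bases after it (chr9:107296609-107296688, plus strand, matches in capitals).
Cish: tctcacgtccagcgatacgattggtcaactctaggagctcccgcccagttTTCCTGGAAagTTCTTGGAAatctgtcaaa
The pattern was in 8.71% of windows of genes that fell in all 7 pairs by a mean of at least 1 and in 5.78% of those that rose likewise, against 6.69% of windows of tested genes and 8.3% of all windows.

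A large part of the genes was pinned to small changes. The 95% interval of the paired change lay within 0.25 of 0 on the log2 scale for 236 genes (1.95%), within 0.5 for 3078 (25.5%) and within 1 for 7545 (62.4%). Of 19 common reference genes 5 rose and 2 fell, with a median of -0.06. Gapdh stood at 0.22 ± 0.09 (adjusted p = 0.0611) although all 7 mice were higher, and Tfrc, the transferrin receptor gene, rose by 0.88 ± 0.11 on the probe set used and by 2.74 on another. B2m, the light chain of MHC class I, fell by 0.52 ± 0.11 in all 7 pairs, with the class I genes above.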

How the data were processed

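Affymetrix mouse arrays were used on whole dorsal skin. Each deposited log2 value describes a probe set, and per the submitters' processing notes the authors computed it with GCRMA. Its release is not given in the sources used here, nor is whether the 16 arrays went through it jointly, which could shift differences between days. Groups and pairs come from the labels, which assign both arrays to 1 mouse number, and the design text calls them paired. The 2 arrays of a mouse, as deviations from their group means, correlated above 0.1 in 2 of 7 mice (range -0.20 to 0.16).

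Of 45101 probe sets, 34958 had 1 gene symbol, 932 had several and 9211 were not listed in the platform's gene table. A probe set was kept at a log2 value above 4 in at least 2 arrays, and each gene was represented by its kept probe set of highest mean. The paired change was fitted with the mouse as a block in limma 3.58.1 (R 4.3.3, statmod 1.5.0; 6 residual and 2.86 prior degrees of freedom), with Benjamini-Hochberg adjustment over 12087 genes. Differences between arms were tested on the changes (4 residual degrees of freedom). Scripts were tested on simulated data. The number of arrays limits the precision.

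The comparison, its members, the 45 gene lists and the alternatives were chosen with earlier results of these data known. Named genes were the 12 largest rises and falls among genes that passed, moved one way in all 7 pairs and did not overlap between the days, leaving out symbols of predicted genes; the 4 rises and 4 falls whose weakest pair moved most; the 4 members of each list with the smallest p; the 8 genes with the smallest p between arms; and Jak1, Jak2, Jak3, Tyk2, Cish and Socs3, where tested. Of these, 65 had other kept probe sets, which differed by more than 1 or in sign for 26. Other genes were picked with their values known. RefSeq windows matched 144 of 197 named symbols. Alternatives covered the block, the filter, the probe set rule, arm weights, centring, the eBayes settings and leaving out each mouse.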

Additional observations from a re-analysis of the deposited data

Results flagged for a closer look

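Of 244 sets of 7 changes that were examined (gene lists and named genes), 11 (4.51%) held a mouse far from the other 6 by Dixon's criterion at 95%, and chance gives about 1 in 20. Mouse 8 stood apart in 4. Its median change of T and NK cell markers was -3.42, against -1.91 to -1.61 in the others, and that of Langerhans and dendritic cell markers was -1.38, against -0.59 to -0.02. Cd74, the invariant chain gene of MHC class II, changed by -2.09 in mouse 8 and by -1.18 to -0.49 in the others, and the hedgehog co-receptor gene Cdon by -1.79, against -1.18 to -0.76. Mouse 6, treated with ruxolitinib, stood apart in 4 and had the smaller change each time. Cry1 rose by 0.98 there (1.58 to 2.03 in the others), Nfil3 by 0.93 (2.40 to 3.14), Sostdc1 changed by -0.95 (-2.88 to -2.11) and Gas1 by -0.29 (-1.28 to -0.91). The immediate early gene Ier3 rose by 1.50 in mouse 4 (0.52 to 0.89 in the others). Srebf2, the sterol regulator gene, changed by -1.61 in mouse 3 (-0.81 to -0.36). Dct changed by -0.63 in mouse 2 and rose by 2.18 to 3.27 in the others. The cause of none of these was tested.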

How the results depend on the processing

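The limits of the shared change are its 7 pairs, its 3 inseparable influences and the day-0 state of mice 3, 8 and 9. Without these 3 mice 3059 genes passed, 1206 higher and 1853 lower, in a fit with fewer mice by construction and chosen after seeing the data. A mean change of at least 1 as a further condition left 2444 genes, 1127 higher and 1317 lower. With each of the 7 changes at least 0.5 the genes moving one way numbered 1453, and with at least 1 they numbered 496. Without the replicate block, that is without the pairing of the biopsies by mouse, 7171 genes passed, 6637 of them shared with the paired fit. The other settings gave 5843 to 7820 genes, and centring turned the majority (3555 higher, 3311 lower). Without the filter on low values, 18 of the 45 gene lists had a median change of at least 0.5 in either direction, against 27 with it. Leaving out 1 mouse gave 5659 to 6967 genes, with 2463 to 3281 higher and 3194 to 3747 lower, and 5080 to 6261 genes moving one way in the remaining 6 pairs. Between arms 0 genes passed under every alternative run, with a smallest adjusted p of 0.0525 (without mouse 3) to 0.714 and 513 to 2229 genes at an unadjusted p under 0.05. Of 199 named genes, 159 kept their direction and side of the threshold under each of the 14 alternatives that gave them a value, and 31 lost the call without mice 3, 8 and 9. Genes near background (2.43) have uncertain sizes.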
